A study of Mus musculus with 8 samples.

Results

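Genes with a transient course were sought in mouse oligodendrocyte precursor cells (OPCs) that were followed through 3 days of differentiation in culture. A gene had the course of a peak when its means on Day 1 and Day 2 both lay above its means on Day 0 and Day 3, and the course of a dip when both lay below. The means were taken on log2(FPKM + 1), FPKM being fragments scaled to transcript length and to the mapped total of the library. Of 12208 genes that reached an FPKM of 1 in at least 2 libraries, 1321 had the course of a peak (10.8%) and 1491 the course of a dip (12.2%). Limma then compared the 4 libraries of the middle days with the 4 libraries of the ends, and a gene with either course was called when its Benjamini-Hochberg adjusted p was below 0.05. This left 289 peaks (2.37% of the genes tested) and 295 dips (2.42%). Because the course was read from the same libraries as the contrast, the sign of a member's contrast follows from its selection and is given as a description.

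OPCs divide while platelet-derived growth factor is present, and they leave the cell cycle and differentiate once it is withdrawn and thyroid hormone is supplied. Between the dividing progenitor and the cell that wraps axons lies a short premyelinating stage. Such a cell has stopped dividing, extends a branched network of processes, switches on its own set of genes (the receptor gene Gpr17 and the transcription factor gene Tcf7l2 among them) and begins to make large amounts of membrane lipid, of which cholesterol is a main part. Most myelin protein genes reach their highest levels only afterwards.

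All 8 libraries came from wild-type C57BL/6J OPCs, and the groups differed in time alone: Day 0, before the switch to medium with the thyroid hormone T3, and Day 1, Day 2 and Day 3 after it, with 2 replicates each. The cells had been immunopanned for PDGFRα from the pooled cortices of week-old pups, and PDGF-AA was removed when T3 was added, so withdrawal of the mitogen and addition of the hormone cannot be told apart. The labels describe maintenance in medium with serum, whereas the paper lists an OPC growth medium with no serum among its components. The paper describes the 2 replicates as independent, but neither source says whether they came from separate isolations. The p-values therefore measure the spread between these libraries, which may in part be technical. As bulk RNA was measured, a fall in the share of cells that carry a transcript and a fall in the transcript per cell cannot be told apart in any result below.

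The libraries were shallow, at an estimated 948000 to 1532000 fragments, and the second Day 3 library was the shallowest. Markers of the lineage were present throughout: the summed FPKM of 16 progenitor genes was 2640 and 2839 on Day 0 and 1049 and 849 on Day 3, and that of 23 myelin genes was 1638 and 1201 on Day 0 and 22841 and 30469 on Day 3. Of 11 microglial genes, 8 were listed at 0 in every library, Aif1, Cx3cr1 and Csf1r among them. Of 12 endothelial, mural and fibroblast genes, 10 stayed under 1 FPKM in every library. Of 12 neuronal genes, 6 did. The summed FPKM of the neuronal list was 85.6 and 49.2 on Day 0, 58.7 to 138 on the middle days and 238 and 119 on Day 3. Astrocyte genes stood apart by replicate: the summed FPKM of 8 of them ran from 115 to 156 in the libraries of replicate 1 and from 367 to 906 in those of replicate 2, and Gfap alone reached 45.5 and 603 FPKM on Day 3. From Day 0 to Day 3 the sum of the astrocyte list ran 115, 156, 122 and 135 in replicate 1 and 367, 498, 615 and 906 in replicate 2. The part of these cells in the results was not tested.

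Regardless of course, 450 genes passed with higher values on the middle days (3.69%) and 594 with lower values (4.87%), so that 289 of 450 and 295 of 594 also had the course asked for. The median contrast over all genes tested was -0.04 on the log2(FPKM + 1) scale. Called peaks were well expressed genes, with a median of 39.9 FPKM over the 8 libraries, against 10.2 FPKM for called dips and 11.1 FPKM for all genes tested. In 189 of the 289 peaks the 4 middle libraries all lay above the 4 end libraries, a separation found in 2.74% of all genes tested, and in 137 of the 295 dips they all lay below (2.22%). The called genes were chosen on these same libraries in a way that favours separation, so these counts are a description.

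Most transient changes were modest. The height of a peak or dip, here the gap between the nearest middle day mean and the nearest end day mean, had a median of 0.39 log2 units among called peaks and 0.34 among called dips. A height of at least 1, 2-fold over the nearer end on the FPKM + 1 scale, was reached by 28 peaks and 14 dips, and at the other extreme 33 peaks and 46 dips had a height under 0.1. At the border of the rule, Slc22a17 entered as a peak with a gap of 0.0039 and Il10rb as a dip with a gap of 0.0035, while Ankrd28, with Day 3 above Day 1 by 0.0022, stayed outside. Of the called peaks, 173 were highest on Day 1 and 116 on Day 2, although the difference between these days passed in only 3 of them. Among the dips 124 were lowest on Day 1 and 164 on Day 2, and the difference between the days passed in 7. Over all genes tested, Day 1 and Day 2 differed in 3.89%.

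Day 3 was also compared with Day 0, to show where each transient gene ended. Day 3 and Day 0 could not be separated in 167 of the called peaks, Day 3 lay above Day 0 in 103 and below it in 19. Of the called dips, Day 3 lay below Day 0 in 169 and above it in 30, and the ends could not be separated in 96. Over all genes tested, Day 3 was higher in 12% and lower in 26.3%, and the median of Day 3 minus Day 0 was -0.31 log2 units. The counts below and above Day 0 are to be read beside that general shift, whose source was not tested. In these 169 dips the Day 3 mean thus lay below Day 0 and, by the course asked for, above both middle means. That rise to Day 3 was often not established: the middle days differed from both Day 0 and Day 3 in 43 of the 295 dips (test below).

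Stricter tests kept far fewer genes. When all 4 differences between a middle day and an end day had to hold at once (limma, one-sided, the largest of the 4 p-values adjusted over all genes), 0 peaks and 0 dips passed, with a smallest adjusted p of 1. Without adjustment 150 genes passed upward (1.23%) and 98 downward (0.803%). A test added after the data were seen asked that the mean of the middle days differ from Day 0 and, separately, from Day 3, each with a limma adjusted p below 0.05. Both flanks passed in 92 peaks (0.754%) and 43 dips (0.352%), and in 140 and 72 when the replicate number was entered as a block. These 2 counts depended on single libraries: without the second Day 3 library they fell to 7 and 10, and without the first Day 3 library they were 131 and 47. When the 4 middle and 4 end libraries were treated as 2 plain groups, so that the difference between Day 0 and Day 3 counted as error, no gene passed after adjustment, and 480 peaks and 496 dips had an unadjusted limma p below 0.05.

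The replicate series offer a reading in which members are chosen in one series and looked up in the other. Of 1474 genes with the course of a peak in replicate 1, 1102 had a positive contrast in replicate 2 (74.8%, against 44.7% of all genes tested) and 503 had the full course of a peak there (34.1%, against 11.1%). Of 1803 genes with the course of a dip in replicate 2, 1340 had a negative contrast in replicate 1 (74.3%, against 52.0% of all genes) and 487 the full course (27.0%, against 11.9%). Peaks with a height of at least 1 in replicate 2 numbered 73, and 64 of them had a positive contrast in replicate 1 (87.7%, against 47.9% of all genes). Of 25 such peaks in replicate 1, 17 had a positive contrast in replicate 2 (68%, against 44.7% of all genes). The median contrast of the 73 was 1.73 in the series that chose them and 1.03 in the other, and that of the 25 was 1.64 and 0.94. Dips with a height of at least 1 in replicate 2 numbered 76, and 64 had a negative contrast in replicate 1 (84.2%, against 52.0%). Their median contrast was -1.72 in replicate 2 and -0.75 in replicate 1. Of 33 such dips in replicate 1, 30 had a negative contrast in replicate 2 (90.9%, against 55.1%). The medians of these 33 were -1.61 in replicate 1 and -1.26 in replicate 2. Across the 12208 genes the contrasts of the series had a Pearson correlation of 0.63 and a Spearman correlation of 0.52, given as a description since genes are not independent and the day effects are common to both series.

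**Figure D1:**
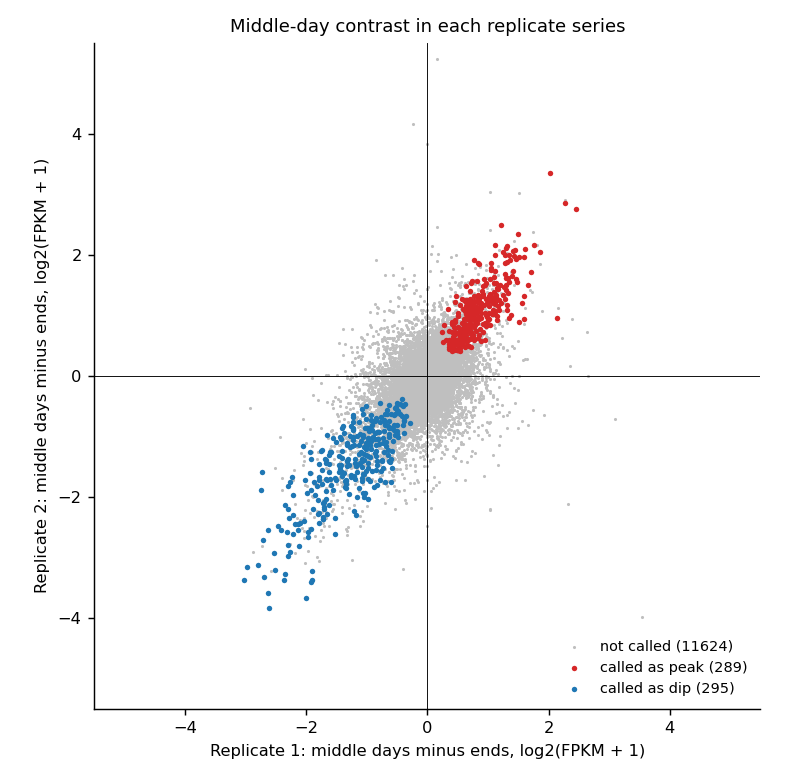
Contrast of the middle days against the ends on log2(FPKM + 1) in replicate 1 (horizontal axis) and replicate 2 (vertical axis), 1 point per gene tested. Called peaks (red, 289) fill the upper right quadrant, called dips (blue, 295) the lower left, and the genes that were not called (grey) spread around 0. Calls were made on the mean of the contrasts shown, so the placement of called genes largely follows from their selection.

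The 12 tallest peaks with separate libraries and a mean FPKM of at least 5 included genes of a secreted growth factor, synaptic and matrix proteins and a kinase. Bmp4, which encodes a bone morphogenetic protein that steers precursors away from the oligodendrocyte fate (chr14:46383520-46390669), was at 5.23 and 4.50 FPKM at the start, 61.3 and 83.1 after 1 day, 30.9 and 9.79 after 2 days and 9.66 and 2.62 after 3 days. Its middle libraries lay above the ends by 2.60 ± 0.41 log2 units (SE; adjusted p = 0.0079), and the lowest middle library was only just above the highest end library. Cbln2, a secreted organiser of synapses on chromosome 18, rose from 1.18 and 0.741 FPKM on Day 0 to 8.15 and 25.2 on Day 1 and 17.9 and 15.7 on Day 2, and was back at 3.75 and 1.42 on Day 3. The Day 0 values of Cbln2 rest on at most about 5 and 2 fragments, computed with its longest annotated transcript. Its contrast of 2.69 ± 0.36 (adjusted p = 0.0047) was the largest of the 12 peaks chosen for height.

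Ust, a sulfotransferase that modifies chondroitin and dermatan sulfate (chr10:8204756-8518825), stood at 3.20 and 4.57 FPKM at the start, 43.8 and 77.9 after 1 day, 55.0 and 45.8 after 2 days and 24.4 and 11.7 after 3 days. All 4 middle values exceeded every end value, but Day 3 did not return to the start (Day 3 minus Day 0 of 1.89, adjusted p = 0.0049). Pdgfa, the gene for the A chain of platelet-derived growth factor, the OPC mitogen that the medium no longer held, was at 10.2 and 7.205 FPKM at the start, 36.0 and 36.9 after 1 day, 42.7 and 67.1 after 2 days and 17.1 and 11.3 after 3 days. Its contrast was 1.92 ± 0.20 (adjusted p = 0.0031), and both flanks passed. Sgk1, a kinase gene induced by glucocorticoids and other stimuli, was at 37.6 and 39.6 FPKM at the start, 123 and 157 after 1 day, 114 and 105 after 2 days and 50.04 and 25.5 after 3 days. Here the ends were alike (Day 3 minus Day 0 of -0.11, adjusted p = 0.79) and the middle days averaged 3.27 times the ends in FPKM.

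The most abundant of the 12 was Bcas1, a marker of newly formed oligodendrocytes (chr2:170346991-170427845). It was at 499 and 539 FPKM at the start, 1213 and 1579 after 1 day, 1566 and 1363 after 2 days and 810 and 360 after 3 days. Tnr, which encodes tenascin-R, a matrix glycoprotein made by oligodendrocytes, was at 106 and 114 FPKM at the start, 289 and 308 after 1 day, 400 and 278 after 2 days and 173 and 79.7 after 3 days. In both genes the second Day 3 library was below either Day 0 library and the first Day 3 library above them. Limma gave contrasts of 1.42 ± 0.23 for Bcas1 (adjusted p = 0.0091) and 1.47 ± 0.23 for Tnr (adjusted p = 0.0076). The other peaks chosen for height were Btbd17, Slc24a3 (a sodium, calcium and potassium exchanger), Elmo1 (a regulator of Rac-driven cell movement), Opcml (an adhesion molecule of the cell surface) and Tmem40. Their contrasts ran from 1.38 for Tmem40 to 1.64 for Btbd17, and of the 12 only Tmem40 did not pass both flanks (adjusted p = 0.036 against Day 0 and 0.074 against Day 3). Tmem40 lost its call in 9 of 16 alternatives other than the 2 plain groups, and Opcml in 4.

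**Figure D2:**
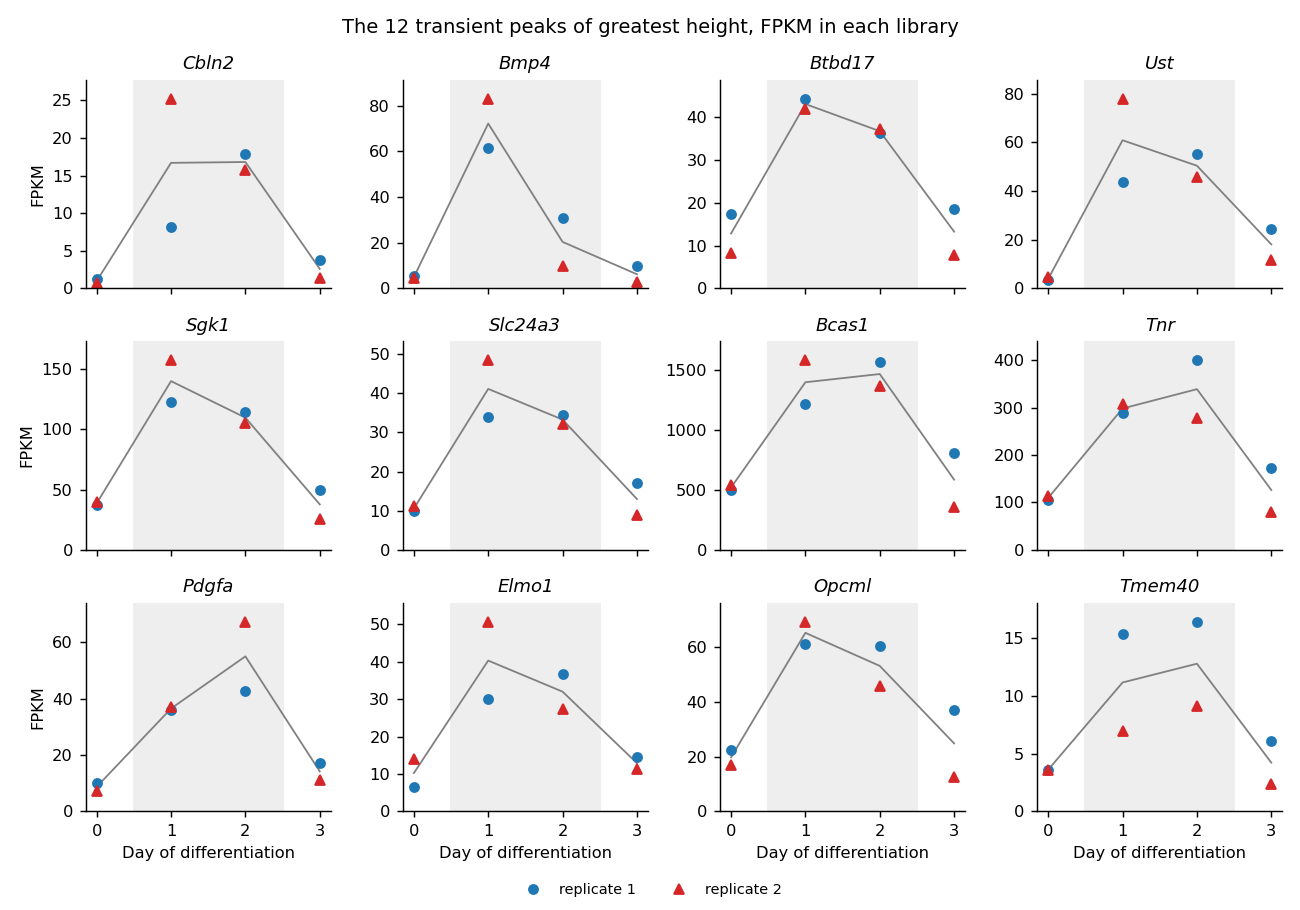
FPKM in each of the 8 libraries for the 12 tallest peaks among calls with separate libraries and a mean FPKM of at least 5, by day of differentiation, with replicate 1 as blue circles, replicate 2 as red triangles, the day mean as a grey line and the middle days shaded. The middle points lie above the end points in every panel because the genes were chosen so; Bmp4 has its highest points on Day 1 and Pdgfa its highest point on Day 2.

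Markers of committed and premyelinating cells formed one of the 2 groups richest in peaks. Of 30 such genes, all tested, 12 were called as peaks (40%, against 2.37% of all genes) and 0 as dips, and the median contrast of the 30 was 0.90. The members were named with results of these data known, and several are used as markers because their expression is transient in the lineage. Bmp4, described above, is among the 12 and is counted again in the Notch and BMP list. Gpr17, the receptor gene that marks committed cells, was at 232 and 279 FPKM at the start, 454 and 449 after 1 day, 321 and 280 after 2 days and 185 and 116 after 3 days. The peak stood on Day 1, the lowest Day 2 library was within 2 FPKM of the higher Day 0 library, and Day 3 fell below Day 0 by 0.79 log2 units (adjusted p = 0.020). Its contrast was 0.92 ± 0.15 (adjusted p = 0.0088).

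Fyn, the gene of a kinase that acts in process outgrowth and in local translation of myelin protein, was at 154 and 155 FPKM at the start, 427 and 546 after 1 day, 606 and 503 after 2 days and 279 and 171 after 3 days. Tcf7l2, a transcription factor gene of the Wnt pathway needed for maturation, was at 22.8 and 27.3 FPKM at the start, 84.2 and 92.0 after 1 day, 96.7 and 95.4 after 2 days and 68.3 and 42.0 after 3 days. Both separated the middle days from the ends and passed both flanks, Fyn with a contrast of 1.48 ± 0.17 (adjusted p = 0.0034) and Tcf7l2 with 1.30 ± 0.15 (adjusted p = 0.0034). Tcf7l2 remained above its start on Day 3 (Day 3 minus Day 0 of 1.07, adjusted p = 0.0058), whereas the ends of Fyn could not be separated (0.49, adjusted p = 0.13).

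Neu4, the gene of a sialidase, was expressed at a low level, at 2.46 and 5.06 FPKM at the start, 16.1 and 27.6 after 1 day, 10.2 and 6.00 after 2 days and 5.09 and 1.16 after 3 days. Other called members were Itpr2 (an intracellular calcium channel, contrast 1.70), Epb41l2 (a membrane skeleton protein, listed under its older symbol Epb4.1l2, contrast 1.64), Cyfip2 (part of the complex that drives branched actin, 1.19), Mpzl1 (0.93), Sox4 (0.70) and Zfp488 (0.44). The last 3 were near the limit and lost the call in 7, 9 and 11 of 16 alternatives other than the 2 plain groups, and leaving out 1 library gave 8 to 13 called genes in the list, with 8 without the first Day 0 or the first Day 2 library. Itpr2 rose so far over the whole course (Day 3 minus Day 0 of 2.00, adjusted p = 0.00074) that its height over Day 3 was 0.39. Of the 30 genes 24 had a positive contrast, 19 passed the contrast upward and 1 passed it downward, and the lowest contrast was -0.97. Enpp6, Tns3 and Tmem163, further markers of new oligodendrocytes with contrasts of 2.58, 1.29 and 2.05, were among those without the course. Day 3 stood above Day 1 in each, for Enpp6 at the border (log2 means of 7.84 and 7.82). Enpp6, for example, was at 11.1 and 14.6 FPKM at the start, 158 and 320 after 1 day, 524 and 477 after 2 days and 299 and 174 after 3 days.

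Cholesterol synthesis and uptake was the other such group. Of 24 genes tested, 18 were called as peaks (75%, against 2.37% of all genes), 0 as dips, and 13 passed both flanks; the median contrast was 0.84. All 18 were highest on Day 1, as were the 5 called fatty acid genes, and for 13 of them Day 3 and Day 0 could not be separated. Leaving out each library in turn gave between 12 and 18 called genes, with 12 without the first Day 0 library. The pathway is controlled by SREBP2, the product of Srebf2, a transcription factor released from the endoplasmic reticulum when sterols run low. Its target promoters commonly carry a sterol regulatory element beside a CCAAT box, which is bound by the factor NF-Y.

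Hmgcs1, which makes the precursor HMG-CoA, was at 294 and 325 FPKM at the start, 831 and 1061 after 1 day, 597 and 682 after 2 days and 492 and 474 after 3 days. Its contrast was 1.00 ± 0.11 (adjusted p = 0.0034), and Day 3 remained above Day 0 (0.64, adjusted p = 0.014). Lss, the lanosterol synthase that closes the ring system, was at 41.2 and 41.2 FPKM at the start, 139 and 200 after 1 day, 78.6 and 105 after 2 days and 70.0 and 61.2 after 3 days. It had the largest contrast of the list, 1.23 ± 0.14 (adjusted p = 0.0034). Mvd followed at 1.21 ± 0.19 (adjusted p = 0.0075).

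Further along the pathway, Fdps (0.98), Fdft1 (1.03), Sqle (0.59), Cyp51 (0.75), Tm7sf2 (1.04), Msmo1 (0.89, listed as Sc4mol), Nsdhl (0.94) and Dhcr7 (0.89) were called, as were Acat2 (0.64) and Mvk (0.72) near its start. The call was lost in 8 of 16 alternatives other than the 2 plain groups for Mvk and in 6 for Acat2. For Fdps, Sqle, Cyp51 and Tm7sf2 it was lost in 1 to 3. Dhcr7, which takes one of the last steps, was at 63.2 and 58.5 FPKM at the start, 135 and 166 after 1 day, 75.5 and 91.2 after 2 days and 64.1 and 54.1 after 3 days, a full return (Day 3 minus Day 0 of -0.04, adjusted p = 0.85). Genes of sterol transport and control were called too: Insig1, which holds SREBP in the endoplasmic reticulum, had a contrast of 0.79 ± 0.11 (adjusted p = 0.0059), the sterol carrier gene Stard4 1.02 ± 0.16 (adjusted p = 0.0074), and Srebf2 itself 0.41 ± 0.10 (adjusted p = 0.037), a call lost in 8 of 16 alternatives other than the 2 plain groups. Among the 6 genes not called were Pmvk (0.56), Ebp (-0.17), Idi1 (contrast 0.55, adjusted p = 0.087), Sc5d (0.30, adjusted p = 0.21) and Hsd17b7. Hsd17b7 had another course, from 13.97 and 14.97 FPKM on Day 0 through 61.5 and 76.4 on Day 1 and 104 and 135 on Day 2 to 183 and 249 on Day 3.

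Promoters of 12 of the 18 called genes were in the RefSeq table used (14 windows of 250 bases before to 50 after the start of a transcript, GRCm38.p6). A CCAAT box (CCAAT on either strand) was present in 11 of the 14 windows (78.6%), against 37.4% of all 32851 windows, 39.1% of the 284 windows of called peaks and 50.7% of the 272 windows of called dips. A shortened sterol regulatory element (TCACNCCA on either strand) was present in 3 of the 14 (21.4%), against 4.36% of all windows, 4.58% in called peaks and 3.68% in called dips. For GC boxes (GGGCGG on either strand) the shares were 92.9% in the 14 windows, 35.7% in all and 64% in the windows of genes tested, and for E-boxes (CANNTG) 78.6% and 72.3%. Matches to these letters are a description and were not tested. The 150 bases upstream of the start are shown for Hmgcs1, Mvk, Mvd and Msmo1, 4 early and late enzymes of the pathway, because they carry the CCAAT boxes, and in Hmgcs1 the sterol element too. Capitals mark CCAAT or its reverse complement ATTGG in all 4, and in Hmgcs1 also TCACCCCA. The windows are chr13:119690201-119690350 (plus strand), chr5:114444119-114444268 (plus strand), chr8:122443423-122443572 (minus strand) and chr8:64733579-64733728 (minus strand), each written 5′ to 3′ on the strand of the gene.
Hmgcs1: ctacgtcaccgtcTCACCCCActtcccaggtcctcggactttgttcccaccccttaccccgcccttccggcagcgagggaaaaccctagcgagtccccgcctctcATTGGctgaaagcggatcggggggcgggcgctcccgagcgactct
Mvk: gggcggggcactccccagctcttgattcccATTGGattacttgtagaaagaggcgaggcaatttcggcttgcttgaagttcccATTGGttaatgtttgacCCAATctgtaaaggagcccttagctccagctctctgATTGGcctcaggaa
Mvd: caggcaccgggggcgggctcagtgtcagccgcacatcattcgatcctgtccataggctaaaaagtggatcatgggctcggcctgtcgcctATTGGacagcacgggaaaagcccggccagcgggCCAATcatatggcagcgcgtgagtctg
Msmo1: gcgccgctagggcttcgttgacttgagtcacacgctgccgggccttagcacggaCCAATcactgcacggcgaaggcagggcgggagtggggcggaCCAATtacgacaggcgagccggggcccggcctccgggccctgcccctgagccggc

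Of 14 fatty acid genes tested, 5 were called as peaks (35.7%, against 2.37% of all genes), 0 as dips, and the median contrast was 0.45. The count was 2 without either Day 0 library, the second Day 1 library, the second Day 2 library or the first Day 3 library, and of the 5 only Scd1 and Fads1 passed the contrast under every alternative other than the 2 plain groups. Scd1, a stearoyl-CoA desaturase, was at 113 and 107 FPKM at the start, 305 and 349 after 1 day, 271 and 249 after 2 days and 195 and 240 after 3 days, with a contrast of 0.91 ± 0.10 (adjusted p = 0.0034). Here the higher Day 3 library came within 10 FPKM of the lower Day 2 library. Acsl3 (contrast 1.25), Fads1 (0.69), Elovl6 (0.55) and Acly, which makes cytosolic acetyl-CoA (0.45), were the other members called, and Fads1 alone passed both flanks. Fasn, the fatty acid synthase (0.39, adjusted p = 0.056), and Fads2 (0.37, adjusted p = 0.059) had the course of a peak and did not pass, and the major desaturase Scd2 kept on near its Day 2 level (1450.4 and 1789 FPKM on Day 3).

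**Figure D3:**
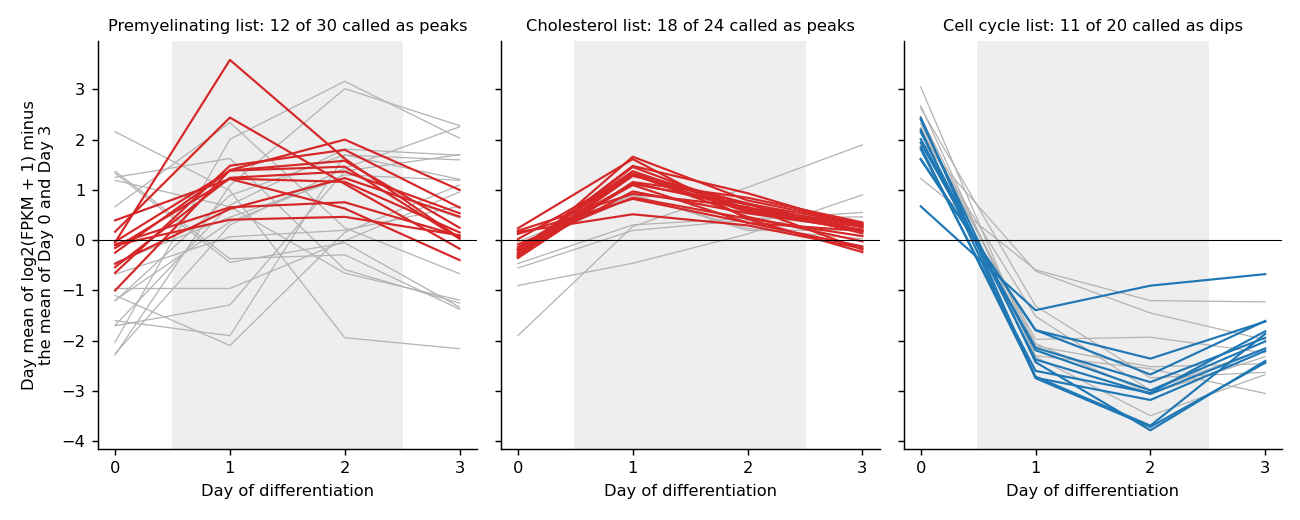
Day means of log2(FPKM + 1) after subtraction of the mean of Day 0 and Day 3, 1 line per gene of the premyelinating, cholesterol and cell cycle lists, with called peaks in red, called dips in blue, other genes in grey and the middle days shaded. The 18 called cholesterol genes all crest on Day 1, the 12 called premyelinating genes crest on Day 1 or Day 2, and the 11 called cell cycle genes drop from Day 0 and stay far below it on Day 3.

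A few genes of the cytoskeleton were called in each direction, in counts too small to read a share from. Of 28 actin genes, 4 were called as peaks (14.3%) and 1 as a dip (3.57%). Of 24 microtubule genes, 2 were called as peaks and 2 as dips (8.33% each). Over all genes 2.37% were called as peaks and 2.42% as dips. The actin peaks fell to 1 without the second Day 3 library, the actin dip was lost when any single one of 5 libraries was left out, both Day 0 libraries among them, and the microtubule peaks fell to 1 without either Day 0 library or the first Day 2 library. Actg1, the cytoplasmic gamma-actin, was at 1159 and 1207 FPKM at the start, 1354 and 2466 after 1 day, 1513 and 1639 after 2 days and 842 and 658 after 3 days, with a contrast of 0.85 ± 0.19 (adjusted p = 0.029). Marcks, a membrane protein that binds actin filaments (0.96), Pfn2, a profilin (0.84), and Wasf1, which activates branching of actin (0.79), completed the peaks. Actb, the beta-actin gene, had a contrast of 0.39 that did not pass (adjusted p = 0.16).

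The actin dip was Gsn, encoding gelsolin, which severs filaments. It was at 47.9 and 40.7 FPKM at the start, 30.7 and 19.8 after 1 day, 29.9 and 25.03 after 2 days and 67.0 and 165 after 3 days. All 4 middle libraries lay below the ends, and the replicates of Day 3 differed widely. Among the tubulins Tuba1a, a main tubulin of cells that grow processes, was at 2054 and 2071 FPKM at the start, 4168 and 5392 after 1 day, 5388 and 5055 after 2 days and 3829 and 2471 after 3 days (contrast 0.98 ± 0.17, adjusted p = 0.012). Dpysl2, a tubulin-binding protein of outgrowing processes, was also called (0.82).

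Map4, listed as Mtap4 and encoding a microtubule-binding protein, was a dip with little spread between replicates. It was at 68.5 and 70.0 FPKM at the start, 45.5 and 45.9 after 1 day, 45.8 and 43.1 after 2 days and 66.9 and 71.2 after 3 days. Its contrast was -0.61 ± 0.09 (adjusted p = 0.0058), both flanks passed, and Day 3 minus Day 0 was -0.0045. Tubb6, the other dip, was mainly a gene of Day 0, at 31.8 and 46.7 FPKM there and under 5 in every later library.

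Adhesion and guidance genes gave 5 peaks (14.3%, against 2.37% of all genes) and 0 dips (limma; 2 at an unadjusted p below 0.05) among 35 tested, with a median contrast of 0.25. Leaving out 1 library gave 3 to 6 peaks, with 3 without the first Day 0, the second Day 1, the first Day 2 or the second Day 3 library. Besides Tnr these were Plxnb3, a semaphorin receptor (1.32 ± 0.16, adjusted p = 0.0034), Ncam1 (0.60), Cadm2 (0.98) and L1cam (1.96). L1cam, an adhesion molecule of growing processes, was at 0.740 and 1.23 FPKM at the start, 5.70 and 15.7 after 1 day, 3.57 and 2.70 after 2 days and 0.520 and 0.395 after 3 days. The levels were low, yet the middle libraries lay above the ends in both series (adjusted p = 0.0082). Nfasc and Sema6a, other abundant members, were highest on Day 3 and were not called.

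Signalling lists gave 1 peak of 10 in the Wnt list, 1 of 22 in the Notch and BMP list and 1 of 7 in the thyroid hormone list, against 2.37% of all genes, counts too small to read a share from. In the Wnt list Tcf7l1, a repressor of the same family as Tcf7l2, was at 18.6 and 16.6 FPKM at the start, 76.7 and 56.5 after 1 day, 55.3 and 36.1 after 2 days and 27.6 and 13.1 after 3 days (1.52 ± 0.24, adjusted p = 0.0079). Lgr5 was called as a dip on values under 5 FPKM, with a height of 0.02, and lost its call in 10 of the 13 alternatives run for it other than the comparison of 2 plain groups. Axin2, a feedback target of Wnt signalling, had a contrast of 0.73 that did not pass (adjusted p = 0.12). Bmp4 was the 1 gene called of 22 in the Notch and BMP list, where Id3 (0.68, adjusted p = 0.11) and Id2 (0.46, adjusted p = 0.45) were not called. In the thyroid hormone list 1 of 7 was called, Hr, a corepressor gene induced by the hormone. Hr was at 28.1 and 28.5 FPKM at the start, 72.1 and 66.9 after 1 day, 61.6 and 64.3 after 2 days and 62.9 and 45.7 after 3 days. It did not pass both flanks, and Day 3 remained above Day 0 after adjustment. Its first Day 3 library also exceeded its first Day 2 library. Klf9 (0.31, limma adjusted p = 0.21) was not called.

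Of the myelin list, 22 tested, Gal3st1, the sulfotransferase that completes sulfatide, was the 1 called peak (0.67 ± 0.12, adjusted p = 0.012). It held 60.8 and 55.8 FPKM at the start, 105 and 119 after 1 day, 106 and 144 after 2 days and 95.8 and 88.3 after 3 days. Gjb1, encoding the gap junction protein connexin 32, was the 1 called dip, at 4.36 and 3.81 FPKM at the start, 1.09 and 0 after 1 day, 1.65 and 5.02 after 2 days and 7.35 and 12.6 after 3 days. The second Day 2 library of Gjb1 exceeded both Day 0 libraries. Mbp, Cldn11 and Mag climbed through the course and were not called. Over all genes 2.37% were called as peaks and 2.42% as dips, so 1 call each way among 22 is too few to read a share from.

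The 12 tallest dips chosen by the same rule included receptors and signalling regulators. Kit, the gene of the stem cell factor receptor (chr5:75574916-75656722), was at 8.05 and 12.9 FPKM at the start, 1.58 and 0.454 after 1 day, 1.59 and 1.60 after 2 days and 9.41 and 22.6 after 3 days. The ends averaged 10.2 times the middle in FPKM, and the contrast was -2.57 ± 0.32 (adjusted p = 0.0039). The middle values of Kit rest on at most about 10, 3, 10 and 11 fragments. Erbb3, encoding a neuregulin receptor of the lineage (chr10:128567523-128589652), was at 32.9 and 11.96 FPKM at the start, 11.2 and 0.973 after 1 day, 4.49 and 0.934 after 2 days and 31.0 and 46.2 after 3 days. Its highest middle library was close to its lowest end library, and the call (-2.84 ± 0.60, adjusted p = 0.024) did not hold in 5 of 16 such alternatives, among them the fit without the first Day 0 library (adjusted p = 0.0945).

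Phlda1, a gene induced by growth factor signalling, was at 46.7 and 43.0 FPKM at the start, 6.26 and 4.40 after 1 day, 13.5 and 27.7 after 2 days and 66.2 and 110 after 3 days (-2.48 ± 0.25, adjusted p = 0.0030). The turn came on Day 1, and Day 2 was already above it (adjusted p = 0.040). Arap2, a regulator of small GTPases, was at 23.1 and 23.6 FPKM at the start, 6.98 and 3.61 after 1 day, 6.36 and 6.63 after 2 days and 25.8 and 37.4 after 3 days (-2.05 ± 0.21, adjusted p = 0.0030). Creb5, a transcription factor gene of the CREB family, was at 10.7 and 13.0 FPKM at the start, 1.42 and 0.817 after 1 day, 2.57 and 3.92 after 2 days and 9.25 and 12.4 after 3 days (-2.05 ± 0.22, adjusted p = 0.0034). In these 3 genes the ends could not be separated, and both flanks passed.

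Hist1h1c, a linker histone gene, was at 96.0 and 61.1 FPKM at the start, 38.1 and 19.5 after 1 day, 26.3 and 36.6 after 2 days and 68.7 and 86.2 after 3 days. The level on Day 3 equalled that on Day 0 within the spread of the replicates (Day 3 minus Day 0 of 0.0068, adjusted p = 0.99). St6gal1 (a sialyltransferase), Hepacam (a glial adhesion molecule), Rpa1 (a subunit of the complex that coats single-stranded DNA), Cdc42ep1 (an effector of Cdc42), Slc16a1 (a monocarboxylate transporter that carries lactate) and Pou3f1 (a POU factor of early myelinating cells) followed, with contrasts from -1.08 for Slc16a1 to -1.74 for St6gal1. Slc16a1 and Pou3f1 did not pass against Day 3 (adjusted p = 0.082 and 0.058), and Slc16a1 lost its call in 13 of the 16 alternatives.

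**Figure D4:**
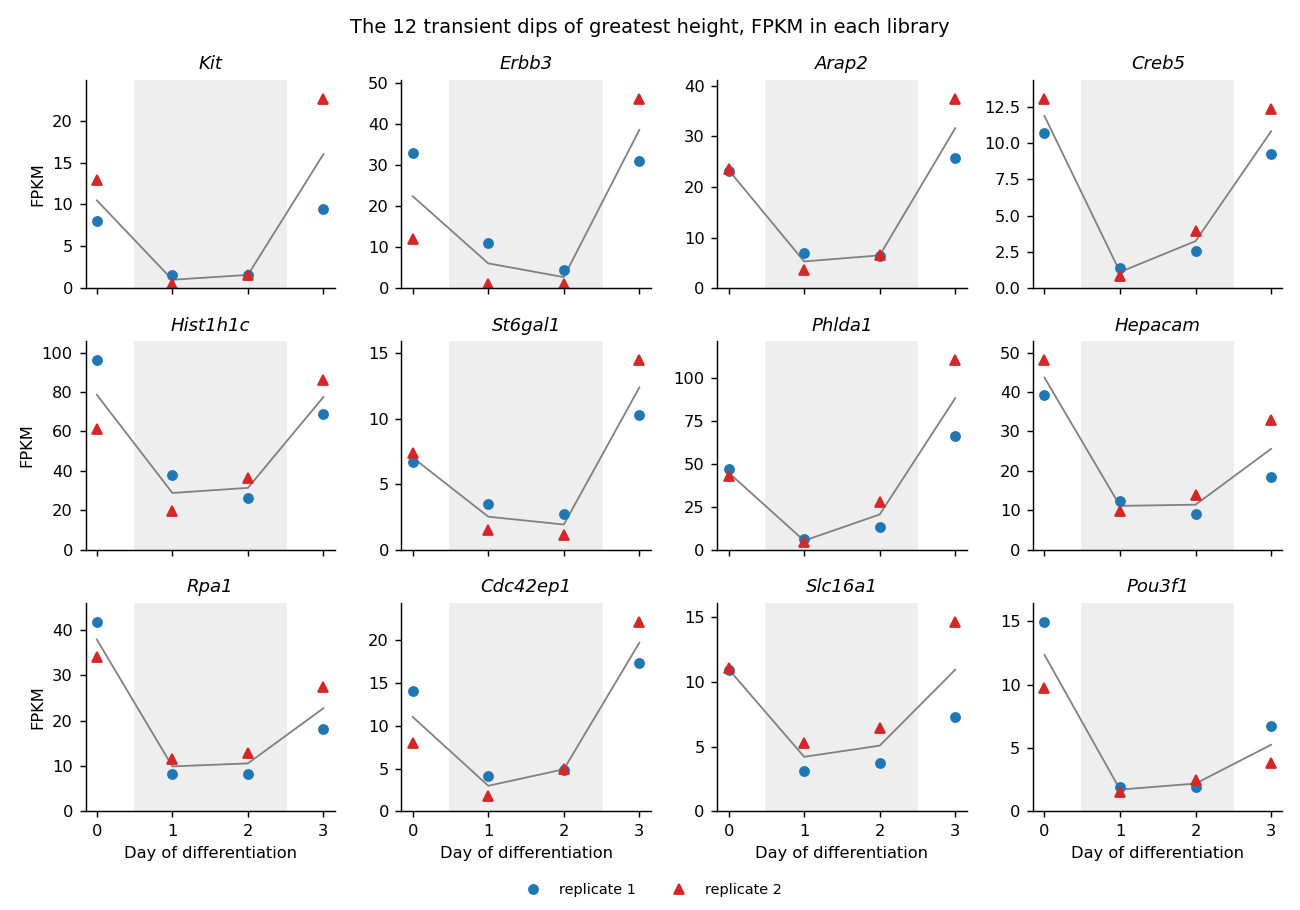
FPKM in each of the 8 libraries for the 12 tallest dips among calls with separate libraries and a mean FPKM of at least 5, by day of differentiation, with replicate 1 as blue circles, replicate 2 as red triangles, the day mean as a grey line and the middle days shaded. The middle points lie below the end points in every panel because the genes were chosen so; Erbb3 has its first Day 1 library near its second Day 0 library, and Phlda1 is already higher on Day 2 than on Day 1.

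Immediate early and growth factor response genes showed 4 dips (16%, against 2.42% of all genes) and 0 peaks among 25 tested, with a median contrast of -0.50. Without either Day 0 library 2 dips were called. Jun, a subunit of AP-1, was at 33.1 and 36.1 FPKM at the start, 11.5 and 7.36 after 1 day, 18.3 and 22.9 after 2 days and 46.9 and 48.8 after 3 days (-1.49 ± 0.15, adjusted p = 0.0031). It returned past its start without a difference that passed (0.46, adjusted p = 0.13). The other dips were feedback and effector genes of the MAP kinase pathway. Of these Etv5 remained far below its start (Day 3 minus Day 0 of -3.11, adjusted p = 0.00013) and was at 74.0 and 75.9 FPKM on Day 0, 3.54 to 6.23 on the middle days, and 7.196 and 8.47 on Day 3. Etv4 (-2.03) and Dusp6 (-1.40) had lower levels, under 12 FPKM throughout. Fos (-0.06, adjusted p = 0.89) and Myc (0.17, adjusted p = 0.71) were not called.

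Cell cycle genes gave 11 dips (55%, against 2.42% of all genes) and 0 peaks among 20 tested, with a median contrast of -2.45, and their recovery was slight beside the loss. In all 11 Day 3 lay below Day 0 after adjustment, 0 passed both flanks, and their heights ran from 0.02 for Mki67 to 0.85 for Cdc20. Mki67, a marker of dividing cells, was at 133 and 107 FPKM at the start, 7.61 and 1.09 after 1 day, 0.896 and 0.447 after 2 days and 3.64 and 3.004 after 3 days. Ccnd1, cyclin D1, was at 124 and 158 FPKM at the start, 9.24 and 3.30 after 1 day, 4.76 and 3.17 after 2 days and 11.4 and 9.62 after 3 days, so that every Day 3 library exceeded every middle library. Leaving out the second Day 1 library reduced the 11 to 4.

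Dips of the other lists were scattered, and their counts, against 2.42% of all genes, are too small to read a share from. Of 16 progenitor genes, Olig1 (-0.88 ± 0.11, adjusted p = 0.0039) and Sox9 (-1.96 ± 0.43, adjusted p = 0.028) were called as dips and 0 as peaks, and both ended below Day 0. Sox9, which astrocytes share, which like Gfap was higher in replicate 2 on every day, and which is also the 1 call of 7 tested in the astrocyte list, was at 27.5 and 69.0 FPKM on Day 0 and under 10 in every later library. Slc3a2, a subunit of amino acid exchangers, was the 1 call of 26 in the ATF4 list, at 44.1 and 42.2 FPKM at the start, 23.9 and 20.1 after 1 day, 24.6 and 21.8 after 2 days and 38.1 and 50.9 after 3 days (-0.92 ± 0.13, adjusted p = 0.0055). It passed both flanks, while Atf4 itself did not change past the test (0.11, adjusted p = 0.74).

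In the list of survival and death genes, 24 tested, 1 was called as a peak and 1 as a dip, against 2.37% and 2.42% of all genes. Counts in this list and in the interferon and neuronal lists are too small to read a share from. The dip was Bcl2, an inhibitor of apoptosis (-0.93, adjusted p = 0.047), which was near the limit and lost the call in 12 of the 15 alternatives run for it. B2m was the 1 dip among 13 interferon genes (-0.54, adjusted p = 0.046) and lost it in 13. Nefl, at 1.95 and 3.67 FPKM on Day 0 and listed at 0 in the 4 middle libraries, was the 1 call among 6 neuronal genes. Its Day 3 level stayed below Day 0 after adjustment, and the call was lost when any 1 of 5 libraries was left out.

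Housekeeping complexes gave no transient call, against 2.37% of all genes called as peaks and 2.42% as dips. Limma called 0 of 35 proteasome genes, whose contrasts ran from -0.34 to 0.17, and 0 of 76 ribosomal protein genes, with contrasts from -0.26 to 0.49, and 0 genes with a transient course in either list had an unadjusted p below 0.05. Their medians were 0.0036 and 0.0032, against -0.04 for all genes. Of 23 chaperone genes of the endoplasmic reticulum 0 were called (limma; 1 peak at an unadjusted p below 0.05), with a median contrast of 0.23. In the microglial and vascular lists only 1 and 2 genes were tested, and 0 were called.

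**Figure D5:**
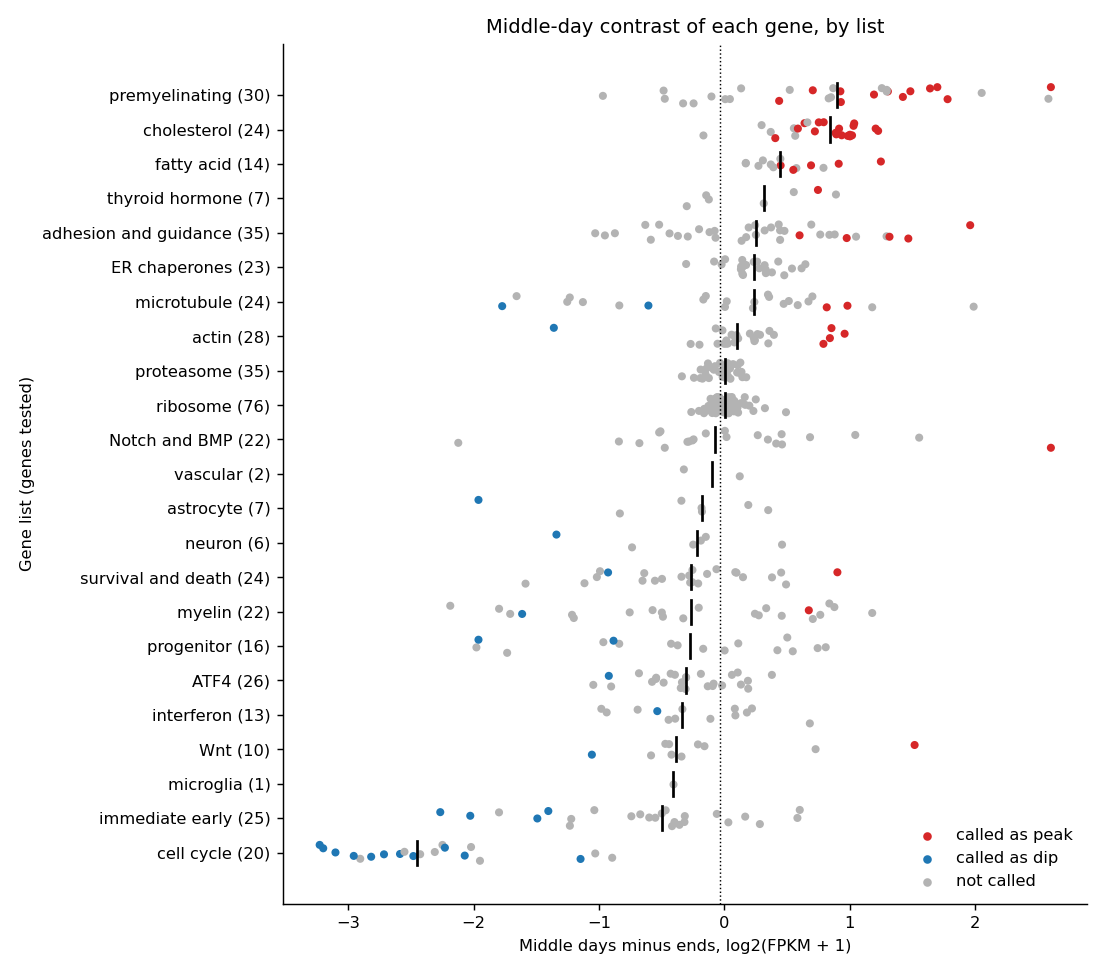
Contrast of the middle days against the ends on log2(FPKM + 1) for every tested gene of the 23 lists, 1 point per gene, red for called peaks, blue for called dips and grey for genes not called, with the list median as a black bar and the median of all genes as a dotted line at -0.04. The medians run from 0.90 for the premyelinating list to -2.45 for the cell cycle list, and the proteasome and ribosome points gather around 0.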

How the data were processed

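Processed values were taken as deposited: the authors aligned paired-end reads of stranded mRNA libraries to mm10 and summarised them with OmicSoft ArrayStudio as FPKM per gene, 1 column per library (23427 entries, 8160 at 0 throughout). No depth accompanies the values. Estimates came from the spacing of low values, of which 41.4% to 54.0% came out whole within 0.05 of a fragment, so it is approximate. Genes with FPKM of at least 1 in 2 or more of the 8 libraries were analysed as log2(FPKM + 1), a scale that understates changes of low genes, with limma 3.58.1 in R 4.3.3 (day as a factor, eBayes with trend, Benjamini-Hochberg adjustment over 12208 genes, threshold 0.05). The contrast is the mean of Day 1 and Day 2 minus the mean of Day 0 and Day 3. FPKM is not a count, so no count model was used.

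The 12 named genes per direction had the greatest height among calls with separate libraries and a mean FPKM of at least 5; called list members and, per list, up to 4 abundant others could be named, and further uncalled genes and those at the border were chosen after their values were seen. The members and the 23 lists (562 entries, 11 matched by an older symbol) were chosen with earlier results of these data known; no set test was run. Same-numbered replicates deviated together (r of 0.16 to 0.29 over 6 pairs of days) and were taken as paired in the alternative with a block. Scripts were tested on simulated data. A few genes of the lists are not reported here by name.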

Additional observations from a re-analysis of the deposited data

How the results depend on the processing

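Across pseudocount, filter, 3 scalings, the replicate block and eBayes without trend, the counts of peaks (289) and dips (295) ran from 201 to 377 and from 232 to 391. The replicate block gave 377 peaks and 391 dips, with all 289 and 295 among them. As 2 plain groups 0 peaks, 0 dips, 0 cholesterol genes, 0 premyelinating genes and 0 cell cycle genes passed (limma, smallest adjusted p = 0.155; 480 and 496 unadjusted); there the day differences within each group enter the error by construction. Genes past both flanks (92 and 43) moved to 61 and 25 with no filter, to 140 and 72 with the replicate block, and to 45 peaks without trend. Leaving out 1 library gave 144 to 360 peaks and 129 to 354 dips, 0 for all 4 day differences, 7 to 131 peaks and 10 to 58 dips past both flanks, 12 to 18 cholesterol, 8 to 13 premyelinating and 4 to 14 cell cycle genes. Peaks were 152 without the first Day 0 library, 144 without the second, 152 without the second Day 1, 158 without the first Day 2 and 180 without the second Day 3 library; dips were 129 and 132 without either Day 0 library and 132 without the second Day 1 library. Fewer samples were fitted in these, and a lone library was assumed to vary like the other days. Of 97 named genes 0 reversed, 75 stayed past the threshold under every alternative run for them other than the 2 plain groups and the leave-outs, and 63 also under every leave-out. Depth limits low genes most.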
